A study of Mus musculus with 4 samples.

Results

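Transcripts of 10 heat shock chaperone genes were followed in pancreatic islets of mice with and without Pdx1-Cre on a Ggcx flox/flox background: Hspa1a, Hspa1b, Hspa8, Hsph1, Hsp90aa1, Hsp90ab1, Dnajb1, Hspb1, Hspd1 and Hspe1. The genes were taken by symbol from the 55487 genes of the deposited table, and all 10 were found, each in 1 row. Their transcripts were abundant in every library, and together they took 1.77% and 1.74% of gene-assigned reads in the controls against 1.68% and 1.77% in the knockouts. Most differed little between the genotypes. Hsph1 was 21.1% lower in knockout islets but did not pass the test, and its call depended on the method. Hsph1 came with lower values of the J-domain genes Dnaja1 and Dnaja4, which also missed the threshold.

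Each of the 4 libraries was made from poly(A)-enriched RNA of islets pooled from 2 C57BL/6 mice aged 30 weeks and used fresh. Ggcx flox/flox mice, with the floxed alleles and no Cre, gave the 2 control libraries. Ggcx flox/flox; Pdx1-Cre mice gave the 2 knockout libraries, and in them the Pdx1 promoter drives Cre in the pancreatic lineage, so that islet cells outside that lineage keep Ggcx. No library carried Cre with intact Ggcx, and the effects of the transgene and of the loss of Ggcx cannot be told apart. The control libraries are named by their numbers in the deposited table, 2 and 3, which the labels number differently. Ggcx, the vitamin K-dependent gamma-glutamyl carboxylase, stood at 3971 and 3981 normalized counts in control libraries 2 and 3, and at 234 and 643 in knockout libraries 1 and 2. Markers of beta cells (Ins1, Ins2, Iapp and 5 others) summed to between 10147298 and 10995157 normalized counts in the 4 libraries. Libraries held between 47624630 and 51756221 gene-assigned reads, and n = 2 pools per genotype throughout. In bulk islet RNA, fewer cells of a type and less RNA per cell cannot be told apart.

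Heat shock proteins bind unfolded or partly folded proteins and keep them from aggregating. In the cytosol, J-domain proteins such as Dnajb1 deliver clients to the HSP70 proteins and stimulate their ATPase, and HSP110 proteins such as Hsph1 release ADP from HSP70 so that the cycle can go on. HSP90 proteins act later, on near-native clients such as kinases and steroid receptors, and small heat shock proteins such as Hspb1 hold unfolded proteins without ATP. Hspd1 and Hspe1 are not cytosolic: they encode HSP60 and its lid HSP10, which form the folding chamber of the mitochondrial matrix. Transcription of many of these genes rises with heat, oxidants or unfolded protein through the factor HSF1, which binds repeats of the unit GAA in alternating orientation.

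The DNA around the start sites was searched for such repeats, to show what the genes share in sequence. RefSeq windows of 300 bases (GRCm38.p6), from 250 before to 50 after a start, were found for 7 of the 10 genes. The searched letters, on both strands, were GAANNTTCNNGAA and TTCNNGAANNTTC for a run of 3 units and GAANNTTC and TTCNNGAA for a run of 2 units, which every run of 3 also contains. A run of 3 units was present near Hsph1, Hspd1 and Hspe1, 3 of 7 genes, and in 0.603% of all 32851 promoter windows. A run of 2 units was present in 6 of 7 genes, all but Dnajb1, and in 15.1% of all windows. A gene counted if any of its windows matched (10 windows for 7 genes), while the shares are per window. Only exact units were searched, so a gene without a match may still hold an imperfect run. A match is a description of the letters and not evidence of binding. The stretches of 30 bases below hold matched elements in capitals, though not every match is printed. They lie at chr1:55088053-55088082 (plus strand) for the pair Hspe1 and Hspd1, at chr5:149636280-149636309 (minus strand) for Hsph1, at chr5:135887791-135887820 (plus strand) for Hspb1, and at chr17:34959324-34959353 (minus strand) for Hspa1b.
Hspe1 and Hspd1: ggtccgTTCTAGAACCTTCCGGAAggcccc
Hsph1: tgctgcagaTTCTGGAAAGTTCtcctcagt
Hspb1: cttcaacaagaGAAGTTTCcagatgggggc
Hspa1b: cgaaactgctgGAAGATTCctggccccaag
The element of Hspe1 begins 89 bases before its start. The same DNA, read on the other strand, is the element of Hspd1, beginning 144 bases before one of its 2 listed starts. The window of the other Hspd1 start held no match of either kind. The printed Hsph1 element, a run of 3 units, lies 15 and 36 bases after the 2 listed starts rather than before them. Hsph1 also has a run of 2 units, not printed, before both starts. The stretch of Hspa1a, at chr17:34972242-34972271, has the same letters as that of Hspa1b.

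Hspa1a and Hspa1b are neighbouring copies of the inducible HSP70 gene, and their upstream DNA is printed because it shows how little separates them. The 250 bases before each start, at chr17:34972157-34972406 for Hspa1a and chr17:34959239-34959488 for Hspa1b (both minus strand), differ at 3 bases, given in capitals.
Hspa1a: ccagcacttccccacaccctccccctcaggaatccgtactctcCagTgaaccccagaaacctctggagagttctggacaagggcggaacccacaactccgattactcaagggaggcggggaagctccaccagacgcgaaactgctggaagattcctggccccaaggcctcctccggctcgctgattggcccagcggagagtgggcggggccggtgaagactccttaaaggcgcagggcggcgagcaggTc
Hspa1b: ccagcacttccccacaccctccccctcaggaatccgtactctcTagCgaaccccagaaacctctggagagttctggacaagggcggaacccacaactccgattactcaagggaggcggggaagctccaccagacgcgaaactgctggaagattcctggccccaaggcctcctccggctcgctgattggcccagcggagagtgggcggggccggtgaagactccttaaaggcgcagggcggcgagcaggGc
Their coding sequences are 99.4% identical, and their 3′ untranslated parts only 48.1%. Of all stretches of 50 bases in the Hspa1a transcript, 58.8% also occur in Hspa1b. The counting may therefore have split or dropped reads between them, and their single values are less certain than the pair. Stretches of 50 bases shared with transcripts of any other gene, mostly processed pseudogenes, made up 39.4% for Hspa8, 47.5% for Hsp90aa1, 50.1% for Hspb1, 42.1% for Hspd1 and 22.8% for Hspe1. They made up 3.44% for Hsp90ab1 and 0.412% for Dnajb1. For Hsph1 none of 7500 stretches was shared, so its value does not rest on the assignment of such reads.

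Levels were first compared between the genes, as normalized counts per kb of exon. Hsp90ab1, the constitutive cytosolic HSP90, was the most abundant, at 56662 and 58861 per kb in controls and 57704 and 58015 in knockouts. Dnajb1, the J-domain partner of HSP70, came next at 52544 and 50317 in controls and 48339 and 54870 in knockouts. Hsp90ab1 exceeded Dnajb1 in every library.

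The 3 HSP70 genes followed. Hspa1b stood at 39790 and 36898 per kb in controls and 36836 and 39877 in knockouts, above Hspa1a in every library. Hspa1a (33121 and 29200 in controls, 30515 and 34006 in knockouts) and the constitutive Hspa8 (31526 and 31225, then 31684 and 31703) changed places between libraries and did not differ beyond their spread. Per kb of exon, Hspa1b also exceeded Hspa8 in every library. Both comparisons with Hspa8 depend on the length used. With the longest transcript as the length, the mean of Hspa8 was 42948 per kb, against 38350 for Hspa1b and 31710 for Hspa1a.

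Hsp90aa1, the inducible HSP90, lay lower, between 21788 and 22963 per kb. Hspb1 (8025 to 10119), Hsph1 (6904 to 9483) and Hspd1 (7402 to 8535) formed a group whose ranges overlapped, and Hspe1 was the lowest, between 4279 and 4472. With the longest transcript in place of all exons as the length, 5 of 10 genes kept their rank and Hspa8 moved up to rank 3.

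**Figure D1:**
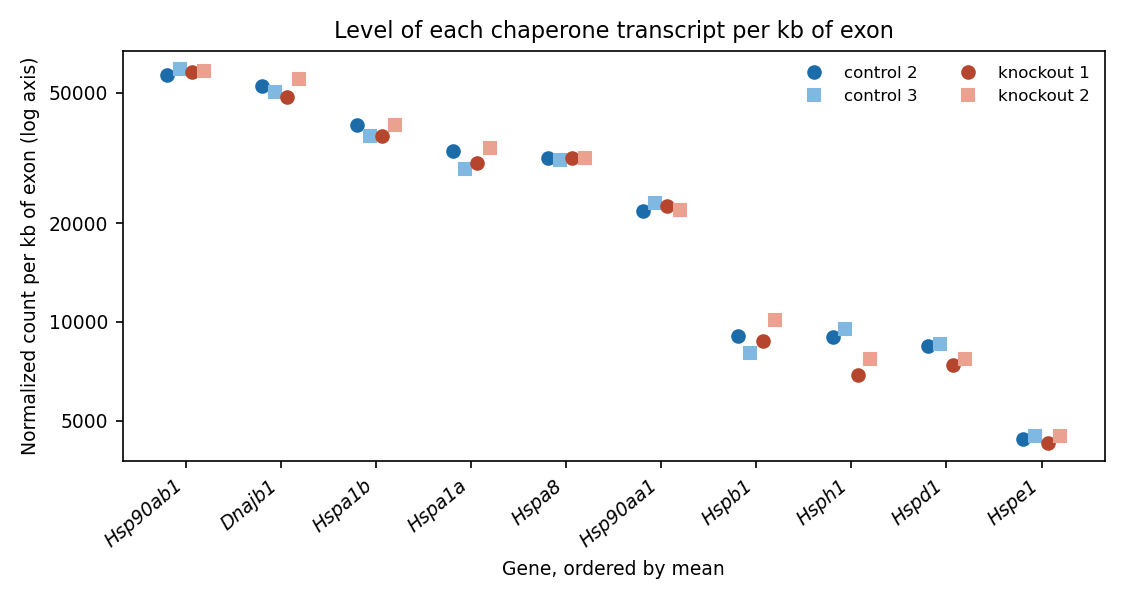
Normalized count per kb of exon (log axis) for each chaperone gene, ordered by mean, with 1 point per library (blue, control; red, knockout). Hsp90ab1 and Dnajb1 lie highest in all 4 libraries and Hspe1 lowest.

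The comparison of knockout with control asked whether the chaperone transcripts differed with the genotype. Tests were made with limma over all 16589 genes with enough signal, among which all 10 chaperone genes passed the filter, and adjusted p-values refer to that whole set. None of the 10 genes was called at an adjusted p under 0.05, against 0.621% of all tested genes (0.374% lower and 0.247% higher in knockouts). At an unadjusted p under 0.05 there were 2 of 10 genes (Hsph1 and Hspd1), near the 14.1% of all tested genes below that value (2336 genes). Of the 10, edgeR called 0 (0.772% of all tested genes) and DESeq2 called 1, Hsph1 (2.41%). The median log2 fold change of the 10 genes was 0.00, equal to that of all tested genes (0.00). Both knockout libraries lay on the same side of the control range for 3 of 10 genes, below it for Hsph1 and Hspd1 and above it for Hspa8. Such separation was found for 45% of all tested genes, so 3 of 10 is not a result about the chaperones.

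**Figure D2:**
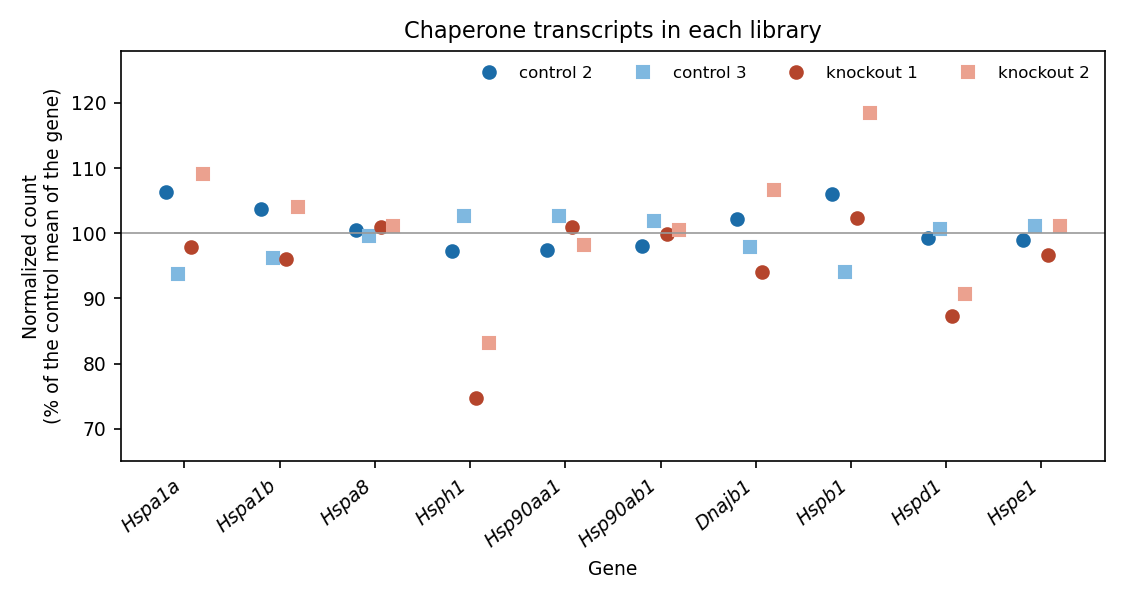
Normalized count of each chaperone gene in each library as a percentage of the gene's control mean (100%, line). Hsph1 and Hspd1 are the genes whose 2 knockout points (red) lie below both control points (blue), and Hspa8 has nearly the same value in all 4 libraries.

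The HSP70 transcripts were close between the genotypes. Hspa8 (ENSMUSG00000015656; GRCm38 chromosome 9, 40800984 to 40810087, plus strand), the constitutive HSP70, had 135593 and 134297 normalized counts in controls and 136273 and 136354 in knockouts. Its knockout libraries lay above both controls by a small margin. The fold change was 1.01, with a 95% interval of 0.918 to 1.11 (limma adjusted p = 0.952).

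Hspa1a (ENSMUSG00000091971; chromosome 17, 34969190 to 34972156, minus strand) had 98269 and 86637 in controls and 90537 and 100896 in knockouts. Hspa1b (ENSMUSG00000090877; chromosome 17, 34956436 to 34959238, minus strand) had 111531 and 103426 in controls and 103253 and 111774 in knockouts. In both genes the genotypes overlapped, with one library of each genotype high and the other low. The 95% intervals of the fold change were 0.914 to 1.17 for Hspa1a and 0.898 to 1.11 for Hspa1b (limma adjusted p = 0.835 and 0.999). Both genes have a single exon, and 564 bases of the Hspa1a exon overlap the gene Gm20481 on the other strand. Gm20481 was counted at 0.651% of the level of Hspa1a, and the strand setting of the counting is not given in the sources used here.

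Dnajb1 (ENSMUSG00000005483; chromosome 8, 83608193 to 83612653, plus strand) had 168352 and 161216 normalized counts in controls and 154879 and 175804 in knockouts. The knockout libraries enclosed the control range. The interval of the fold change was 0.886 to 1.13 (limma adjusted p = 0.996).

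Hsph1 (ENSMUSG00000029657; chromosome 5, 149614287 to 149636376, minus strand), the HSP110 exchange factor, had the largest fold change of the 10 genes. It stood at 65354 and 68904 normalized counts in controls and at 50161 and 55796 in knockouts. Both knockout libraries lay below both controls. The mean was 67129 ± 2510 in controls and 52979 ± 3984 in knockouts (SD, n = 2 pools each), a log2 fold change of -0.34 ± 0.07 (SE) with a limma adjusted p of 0.0607. This is just outside the threshold, and edgeR placed it there too (adjusted p = 0.0585), while it passed with DESeq2 (adjusted p = 0.000169) and with limma's robust empirical Bayes (0.0288). In the authors' deposited table the log2 fold change, turned to knockout over control, was -0.34 with an adjusted p of 8.18e-05, in a table where 2.35% of genes have an adjusted p under 0.05. Without knockout library 2 the gene was called (limma adjusted p = 0.0233, log2 fold change -0.42), and without knockout library 1 it was not (0.195, -0.27).

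Ratios to its partners describe the same Hsph1 values on another scale, since Hspa8 ranged over only 0.02 on the log2 scale, and add no separate evidence. Per unit of Hspa8, Hsph1 stood at 0.482 and 0.513 in controls and at 0.368 and 0.409 in knockouts. Per unit of Dnajb1 it was 0.388 and 0.427 in controls and 0.324 and 0.317 in knockouts. Neither ratio overlapped between the genotypes. An exact permutation test of 2 pools against 2 cannot give a two-sided p below 0.333, so the ratios were not tested. Acinar cell markers, from exocrine tissue that can adhere to isolated islets, were also lower in the knockout libraries. All 10 markers had lower values in both knockout libraries, against 23% of all tested genes. None was called by limma, with 10 at an unadjusted p under 0.05 (14.1% of all tested genes), nor by edgeR or DESeq2, and their summed normalized count was 14790 and 16553 in controls and 7199 and 12452 in knockouts. Summed stellate cell and fibroblast markers were higher, at 2048 and 1543 in controls and 3319 and 2443 in knockouts (7 of 7 above both controls, against 22% of all tested genes). Of these 7 markers limma called 1 higher (Dcn; 6 at an unadjusted p under 0.05), and edgeR and DESeq2 called 1 each. The alpha cell hormone gene Gcg had a log2 fold change of 0.26 ± 0.14 (SE; limma adjusted p = 0.469), with both knockout libraries above both controls. Delta cell markers were above both controls for 3 of 3 (median 0.11), and limma, edgeR and DESeq2 each called 1, which for limma was Rbp4. The 2 PP cell markers had a median of 0.33, and none was called by limma (2 at an unadjusted p under 0.05), edgeR or DESeq2. Dcn, Gcg and Rbp4 are named here after their values were seen. Gcg alone does not stand for the alpha cell markers. The part of these cells in the Hsph1 result was not tested.

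The HSP90 transcripts were close between the genotypes. Hsp90aa1 (ENSMUSG00000021270; chromosome 12, 110690605 to 110702728, minus strand) had 85650 and 90267 normalized counts in controls and 88737 and 86426 in knockouts. Hsp90ab1 (ENSMUSG00000023944; chromosome 17, 45567775 to 45573271, minus strand) had 169929 and 176523 in controls and 173054 and 173986 in knockouts. For both genes the knockout values fell inside the control range. The intervals of the fold change were 0.908 to 1.09 and 0.904 to 1.11 (limma adjusted p = 0.983 and 0.993).

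The small heat shock protein gene Hspb1 (ENSMUSG00000004951; chromosome 5, 135887919 to 135889563, plus strand) had 9331 and 8274 normalized counts in controls and 9014 and 10433 in knockouts. The genotypes overlapped, and the log2 fold change of 0.14 ± 0.08 (SE) did not pass (limma adjusted p = 0.478). The 95% interval of the fold change was 0.975 to 1.25.

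Hspd1 (ENSMUSG00000025980; chromosome 1, 55077835 to 55088243, minus strand) had 22227 and 22550 normalized counts in controls and 19557 and 20288 in knockouts, so that both knockout libraries lay below both controls. Its knockout mean was 0.890 times the control mean, with a log2 fold change of -0.17 ± 0.05 (SE) and a limma adjusted p of 0.149. Hspe1 (ENSMUSG00000073676; chromosome 1, 55088132 to 55091307, plus strand), which lies head to head with Hspd1, had 6454 and 6592 in controls and 6307 and 6591 in knockouts. Its knockout values overlapped the controls (interval 0.916- to 1.07-fold, limma adjusted p = 0.924). The ratio of Hspd1 to Hspe1 was 3.44 and 3.42 in controls and 3.10 and 3.08 in knockouts. The first exons of the 2 genes overlap by 112 bases on opposite strands, and these reads cannot be assigned to one gene without strand.

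**Figure D3:**
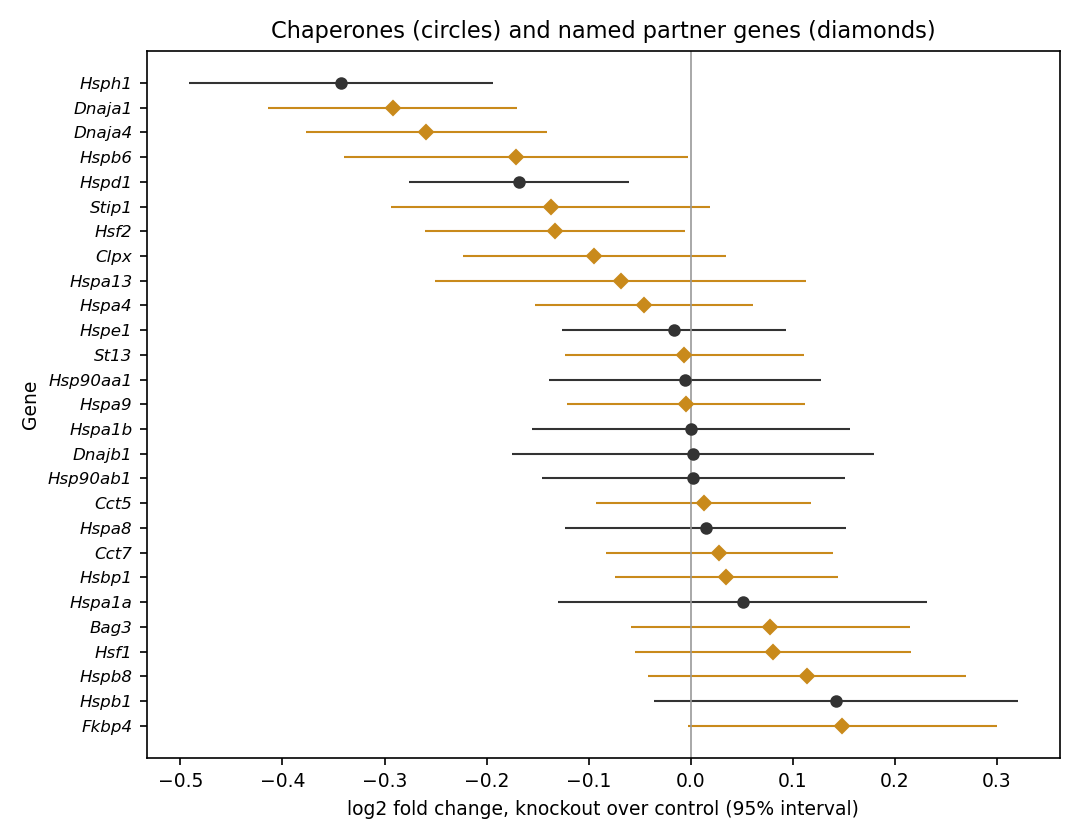
Log2 fold change, knockout over control, with its 95% limma interval for the 10 chaperone genes (circles) and the named partner genes (diamonds). Hsph1, Dnaja1 and Dnaja4 lie farthest below 0, and most other intervals span 0.

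The wider folding machinery was followed in 8 lists, chosen with earlier results of these data known, with 79 genes, of which 75 were tested. None was called by limma or by edgeR. At an unadjusted p under 0.05 there were 10 of 75, near the 14.1% of all tested genes, which is also the background for the unadjusted counts of each list. DESeq2 called 2, Dnaja1 and Dnaja4, both lower. Log2 fold changes were above 0 for 33 of the 75. The knockout libraries lay below both controls for 21 of 75 genes and above both for 12, against 23% and 22% of all tested genes.

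Among the other cytosolic J-domain genes, none of 10 was called by limma (4 at an unadjusted p under 0.05) and the median log2 fold change was -0.08 (all tested genes 0.00). Dnaja1, a farnesylated class A J-domain partner of HSP70, had 28859 and 29794 normalized counts in controls and 23099 and 24829 in knockouts. Dnaja4, of the same class, had 31276 and 30973 in controls and 25154 and 26895 in knockouts. In both genes the knockout libraries lay below both controls, as for Hsph1. The log2 fold changes were -0.29 ± 0.05 and -0.26 ± 0.05 (SE), with limma adjusted p-values of 0.0550 and 0.0660. Dnaja1 and Dnaja4 passed with DESeq2 (adjusted p = 0.000981 and 0.00401) and with robust empirical Bayes in limma (0.0322 and 0.0405), but not with edgeR. Of the 10 listed genes, the knockout libraries lay below both controls for 6 and above both for 2, against 23% and 22% of all tested genes. Lower values were thus not confined to Dnaja1 and Dnaja4. The class B gene Dnajb1 did not share this difference in value, and whether it differed from Dnaja1 and Dnaja4 was not tested. These genes do not stand for their classes, since the other listed genes are not described singly.

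**Figure D4:**
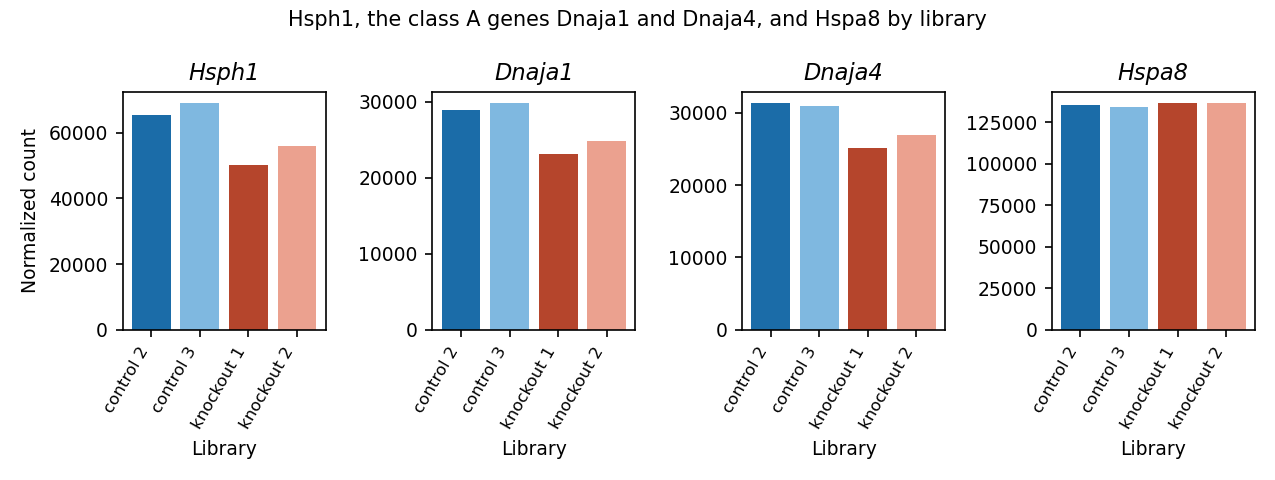
Normalized counts (axes from 0) of Hsph1, Dnaja1, Dnaja4 and Hspa8 in each library, 1 bar per pool. Knockout bars (red) are lower than both control bars (blue) for Hsph1, Dnaja1 and Dnaja4, and level with them for Hspa8.

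The heat shock factors gave small values. Hsf1, the main activator of the heat shock response, had 1613 and 1695 normalized counts in controls and 1713 and 1785 in knockouts (limma adjusted p = 0.612). Hsf2, a second factor of the family, had 2082 and 2188 in controls and 1929 and 1966 in knockouts (0.336). Hsbp1, a small protein that binds HSF1, had a log2 fold change of 0.03 ± 0.05 (SE). The knockout libraries lay above both controls for Hsf1 and below both for Hsf2. None of 4 tested genes of this list was called by limma (1 at an unadjusted p under 0.05). Transcript levels do not report on the activity of HSF1.

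Among exchange factors and co-chaperones of HSP70, none of 9 genes was called by limma (0 at an unadjusted p under 0.05), with a median of -0.01. Bag3, an inducible exchange factor that links HSP70 to autophagy, had 23186 and 22107 normalized counts in controls and 22696 and 25168 in knockouts, with overlapping genotypes. St13, the HSP70-interacting protein HIP, had a log2 fold change of -0.01 ± 0.05 (SE). In the other HSP70 and HSP110 genes none of 8 was called by limma (2 at an unadjusted p under 0.05, median -0.04), and Hspa4, the constitutive relative of Hsph1, stood at -0.05 ± 0.05 (SE), with Hspa13 at -0.07 ± 0.08 (SE).

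Among HSP90 co-chaperones none of 17 genes was called by limma (1 at an unadjusted p under 0.05), and the median was 0.02. Stip1, the adaptor HOP between HSP70 and HSP90, had 10556 and 11308 normalized counts in controls and 10640 and 9276 in knockouts (limma adjusted p = 0.427). Fkbp4, an immunophilin of steroid receptor complexes, had 12674 and 14621 in controls and 15265 and 14919 in knockouts (0.364). Its knockout libraries lay above both controls, while those of Stip1 overlapped them.

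The TRiC chaperonin, which folds actin and tubulin, and prefoldin had 0 of 14 genes called by limma (0 at an unadjusted p under 0.05). Their log2 fold changes ran from -0.11 to 0.10. Cct5 stood at 0.01 ± 0.05 and Cct7 at 0.03 ± 0.05 (SE). Of the other small heat shock protein genes 4 of 7 were tested and none was called by limma (1 at an unadjusted p under 0.05), with Hspb8 at 0.11 ± 0.07 and Hspb6 at -0.17 ± 0.07 (SE).

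The mitochondrial partners of Hspd1 and Hspe1 were not called by limma either (0 of 9, with 1 at an unadjusted p under 0.05, median -0.05). Hspa9, the HSP70 of the mitochondrial matrix, had 13461 and 13977 normalized counts in controls and 14122 and 13235 in knockouts, with overlapping genotypes. Clpx, the unfoldase of the matrix protease ClpXP, had a log2 fold change of -0.09 ± 0.06 (SE). Hspd1 stood at 1.65 and 1.61 per unit of Hspa9 in controls and at 1.38 and 1.53 in knockouts.

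**Figure D5:**
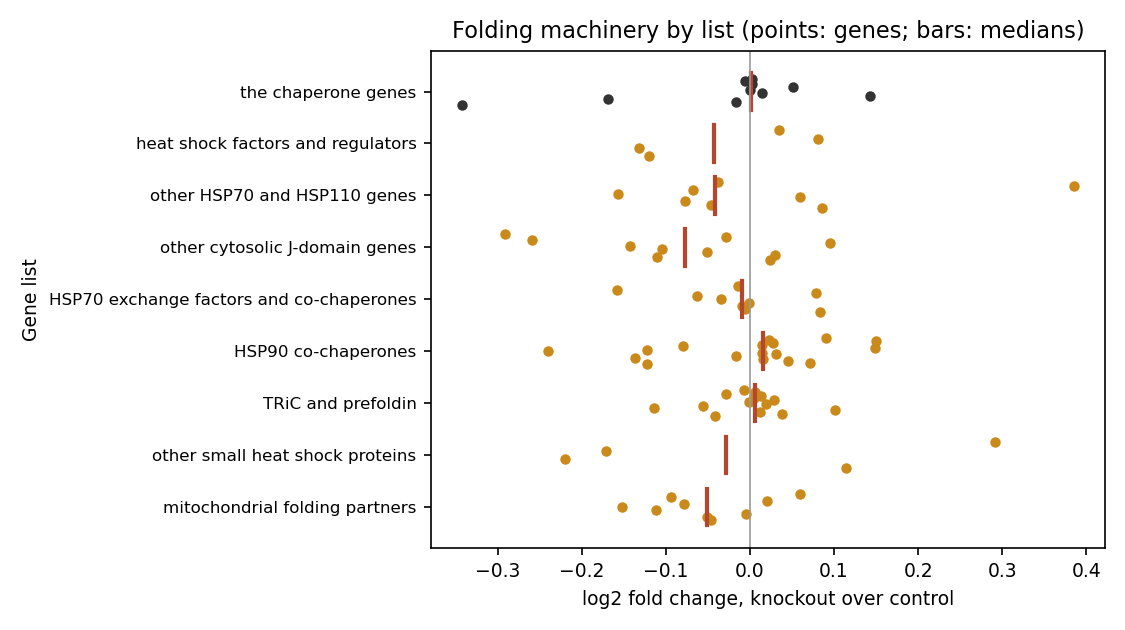
Log2 fold change, knockout over control, of each tested gene (points) in the chaperone set and in 8 lists of the folding machinery, with the median of each list (bars). Medians lie between -0.08 and 0.02, and no gene was called by limma.

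Of all 10 chaperone genes Hsph1 had the widest range over the 4 libraries (0.46 on the log2 scale) and Hspa8 the narrowest (0.02). The genes whose profile over the 4 libraries lay closest to that of Hsph1, among 12267 candidates, were Carmil3, Zfp119b, Sec23a, Uspl1 and Sde2, at Euclidean distances of 0.0149 to 0.0394 on centred log2 values. Carmil3, the closest, had 1827 and 1914 normalized counts in controls and 1407 and 1545 in knockouts. With 4 libraries many genes share such a profile, and the likeness is a description only.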

How the data were processed

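The authors deposited 1 table with a normalized count (signal) per gene and library, which the values show to be read counts scaled by 1 factor per library. Whole reads were recovered from 100% of them, with a tolerance of 0.01 read. They also deposited a log2 fold change, its standard error and statistic (scores) and p-values. GRCm38, DESeq2 1.22.2, featureCounts 1.6.0, STAR 2.5.1b and CASAVA 1.4 are listed, without roles, per the submitters' processing notes.

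The filter kept genes reaching 10 in 2 or more of the 4 libraries, and limma 3.58.1 (R 4.3.3) was run on log2(value + 1), with a mean-variance trend, two-sided, Benjamini-Hochberg adjustment over all tested genes and a threshold of 0.05. The pseudocount of 1 understates changes of low genes. Fold changes and intervals are on that scale. edgeR 4.0.16 and DESeq2 1.42.0 were run on recovered reads as alternatives. The fit was tested on simulated data. Replicates are pools of 2 mice that the labels list separately; chi-square over degrees of freedom was 10.1 in control and 9.85 in knockout pairs, so that neither pair is one library deposited again. At this depth the difference between pools, rather than counting error, limits precision.

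The members and lists were chosen with earlier results of these data known. Named partner genes were those called by limma, the 2 most abundant of each list, and Hsf1, Hspa9, Bag3, Dnaja1 and Stip1. Pattern genes were the 5 nearest to the member with the widest range, with a mean of at least 50. Positions and exon lengths are from GENCODE M21 (GRCm38); promoter sequences are from RefSeq (GRCm38.p6). Columns of other samples found: 0. The summary of the alpha cell marker list is not reported here.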

Additional observations from a re-analysis of the deposited data

How the results depend on the processing

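Hsph1, Dnaja1 and Dnaja4 kept a negative log2 fold change in all 14 alternatives each, from -0.42 to -0.27, from -0.34 to -0.24 and from -0.31 to -0.21. They passed the threshold in 3, 4 and 2 of the 14, with adjusted p-values from 0.000169 to 0.397, from 0.000981 to 0.388 and from 0.00401 to 0.403. Of the 10 chaperone genes, 0 were called higher in any alternative, and 1 (Hsph1) was called lower with robust empirical Bayes and with DESeq2. With one library left out, 0 to 1 of them were called lower (1 without knockout library 2). Of the partner genes, 2 were called lower with robust empirical Bayes and 2 with DESeq2, and 0 to 2 with one library left out: Dnaja1 without knockout library 2, and Dnaja1 and Nudc without control library 2. Nudc, an HSP90 co-chaperone, was chosen after its values were seen. Of all tested genes, 41 were called higher and 62 lower. These counts became 1 and 1 with no filter on low values, 19 and 32 with a minimum of 50, 0 and 0 without the mean-variance trend (1841 at an unadjusted p under 0.05), 85 and 124 with robust empirical Bayes, 57 and 71 with edgeR and 120 and 202 with DESeq2. With one library left out they ran from 49 to 178 and from 47 to 219, the highest without control library 2 (178 and 219); without knockout library 2 they were 80 and 120. By the longest transcript, 5 of 10 genes kept their rank per kb. The causes were not tested. A pseudocount of 0.5 or 5, a common total and a common upper quartile ended or made no call among the chaperone and partner genes. No paired analysis was possible because the control columns carry numbers that do not match the labels, so that at most 1 number is shared.

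With 2 pools per genotype, limma borrows spread across genes, and even the larger differences of Hsph1, Dnaja1 and Dnaja4 missed the threshold; those of Hspb1 and Hspd1 were further from it. Leaving out a library leaves 1 pool in that genotype, which is assumed to vary like the other.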

Other observations

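Hspa1a, Hspa1b, Dnajb1 and Hspb1 shared an order of the libraries that did not follow genotype. In each of these genes, control library 2 and knockout library 2 were above control library 3 and knockout library 1. Bag3 had the same order, at 23186 and 25168 normalized counts in control library 2 and knockout library 2 against 22107 and 22696 in control library 3 and knockout library 1. Immediate early genes respond within minutes to stimulation or tissue handling. The summed normalized count of 10 of them also followed the order, at 690539 and 703881 against 643929 and 623089. Single genes did not all follow it (Fosb did not). Both knockout libraries lay below both controls for 4 of the 10 and above both for 1. Such separation, found for 45% of all tested genes, cannot go with this order. Hspa8, Hsph1, Hsp90aa1, Hsp90ab1, Hspd1 and Hspe1 did not follow this order, nor did the partner genes Dnaja1 and Hspb8. Not every inducible gene had the order, since the inducible HSP90 gene Hsp90aa1 lacked it. The order was noticed in the data and was not tested, and the share of all tested genes that have it was not counted.

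Between the 2 pools of one genotype, Hspa8 differed by 0.01 on the log2 scale in controls and by less in knockouts, while Hspb1 differed by 0.17 and 0.21. The median over all tested genes was 0.11 in controls and 0.09 in knockouts.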
